A study of Mus musculus with 16 samples.

Results

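The 8 genes described here encode the enzymes that write and remove DNA methylation: the methyltransferases Dnmt1, Dnmt3a and Dnmt3b, the cofactor Uhrf1, the dioxygenases Tet1, Tet2 and Tet3, and the glycosylase Tdg. They were chosen by name with their CPM across the 4 groups already known, so their levels and fold changes are given as a description with no p-value. Where calls, counting intervals or far libraries among them are given, they describe these libraries and support nothing. All 8 of 8 symbols matched a gene identifier among the 55471 counted, and all 8 passed the filter on low counts that left 17046 genes for the fit. Their transcripts were measured by RNA sequencing of 16 mouse livers, 4 per group.

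The PAM II and PAM I groups were mice of 102 weeks with antibiotic exposure (labelled Aged_PAM_II and Aged_PAM_I), the aged control group was mice of 102 weeks labelled No_ABX, and the young control group was mice of 12 weeks, also labelled No_ABX. According to the title of the study the exposure was in early life. The labels do not give the drugs, the dose, what PAM stands for, the strain, the sex, or any litter or cage. A free-text label of the young livers calls them aged, and their title, age and group fields, which all say 12 weeks or young adult, were followed. Libraries are called below by group and number, the number being only their order within the group. Both exposed groups were set against the same 4 aged controls, so those comparisons are not independent of each other.

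Cytosine methylation at CpG dinucleotides is copied to new DNA strands by Dnmt1, which Uhrf1 brings to hemimethylated sites during replication, and is set on unmethylated DNA by Dnmt3a and Dnmt3b. The Tet enzymes oxidise 5-methylcytosine to 5-hydroxymethylcytosine and further, using 2-oxoglutarate, iron and ascorbate, and Tdg excises the most oxidised forms so that base excision repair can restore an unmodified cytosine. Most hepatocytes of an adult liver rarely divide, and Tet2 and Dnmt3a are also well known as regulators of blood cells.

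The promoters of the genes on which the results turn are shown because promoters are where CpG methylation most often bears on transcription, and because the 3 windows differ in CpG content. Each window holds the 250 bases before a RefSeq transcription start, credited to RefSeq with the build GRCm38.p6, and is read 5′ to 3′ on the strand of the gene. For Tet2 (chr3:133544391-133544640, minus strand) and Tet3 (chr6:83441679-83441928, minus strand) the capitals mark CpG dinucleotides. For Uhrf1 (chr17:56304063-56304312, plus strand) they mark an E2F-like word and the CCAAT boxes.
Tet2: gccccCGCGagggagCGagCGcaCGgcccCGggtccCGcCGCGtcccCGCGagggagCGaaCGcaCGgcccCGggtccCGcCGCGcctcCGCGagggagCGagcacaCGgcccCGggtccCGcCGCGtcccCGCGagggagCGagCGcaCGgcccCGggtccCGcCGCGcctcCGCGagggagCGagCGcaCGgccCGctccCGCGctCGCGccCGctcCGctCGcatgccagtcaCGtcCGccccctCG
Tet3: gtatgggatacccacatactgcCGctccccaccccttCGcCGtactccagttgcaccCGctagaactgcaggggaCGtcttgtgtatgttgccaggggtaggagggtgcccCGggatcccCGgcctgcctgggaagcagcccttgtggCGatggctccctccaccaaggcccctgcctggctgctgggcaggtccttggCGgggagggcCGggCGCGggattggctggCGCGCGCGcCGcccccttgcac
Uhrf1: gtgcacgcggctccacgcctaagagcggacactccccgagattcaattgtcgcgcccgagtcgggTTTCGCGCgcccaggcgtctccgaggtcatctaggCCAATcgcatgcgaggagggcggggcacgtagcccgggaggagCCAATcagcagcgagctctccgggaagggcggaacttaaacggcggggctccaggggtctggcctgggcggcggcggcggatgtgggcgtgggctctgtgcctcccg

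The Tet2 window held 51 CpG dinucleotides, the Tet3 window 17 and the Uhrf1 window 30, against a median of 6 over 32851 promoter windows of the same length from 27025 genes. In the Tet3 window, 174 bases lie in annotated exons, counted over transcripts of either strand. Both strands were searched for the E2F-like words TTTCCCGC, TTTCGCGC, TTTGCCGC and TTTGGCGC. Each of these words holds a CpG. At least 1 of them is in 1.86% of all windows, but 94.1% of all windows have fewer CpG dinucleotides than the Uhrf1 window. One such word lies 185 bases before the Uhrf1 start, and the Tet2 and Tet3 windows hold none. A pair of CCAAT boxes lies between that word and the start of Uhrf1, a box found in 33.8% of all windows. E2F factors drive genes of DNA synthesis, and these matches are matches of letters that do not show that a factor binds there. Uhrf1 has another RefSeq start, whose window holds 0 E2F-like words, 1 CCAAT box and 10 CpG dinucleotides. A window of Dnmt1 also holds 1 E2F-like word, 219 bases before its start. The annotated spans of Tet2 and Tet3 reach upstream of the starts shown.

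Libraries held 36968993 to 52090914 assigned fragments over 20002 to 23644 detected genes, and no library was a copy of another. All 8 hepatocyte markers, among them Alb, Ttr and Cps1, were present, with a summed level of 62856 to 120913 CPM (counts per library size, after TMM scaling) per library. Young control 1 stood apart, with the fewest fragments and genes and 13.9% mitochondrial fragments, against 4.14% to 9.01% in the other libraries, and aged control 4 had the highest summed T and NK cell markers, at 29.9 CPM. The 6 skeletal muscle markers, which a liver should lack, summed to 0.636 CPM in the lowest library and 87.3 CPM in the highest.

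Per length of exon, Dnmt1 was the most abundant of the 8 transcripts and Tet1 was close to absent. Averaged over the 16 libraries, the level was 2.15 RPKM (CPM per kilobase of summed exon) for Dnmt1, 1.54 RPKM for Dnmt3a and 1.5 RPKM for Tdg. Tet3 averaged 1.38 RPKM, Tet2 1.12 RPKM, Dnmt3b 0.878 RPKM, Uhrf1 0.320 RPKM and Tet1 0.00961 RPKM. Neighbours in that order overlapped in their ranges over the libraries, except Uhrf1, whose lowest library had 0.0756 RPKM, and Tet1, whose highest had 0.0216 RPKM. In the aged controls alone, Dnmt1 at 2.29 ± 0.20 RPKM stood above Tet3 at 1.67 ± 0.09 RPKM (SD, n = 4 each), while Tet3, Dnmt3a, Tdg and Tet2 had overlapping ranges. Their lengths differ: the summed exons of Tet2, Tet3, Dnmt3a and Tet1 span 16870, 16695, 16642 and 15457 bases, against 7377 for Dnmt1, 5374 for Tdg, 5106 for Dnmt3b and 4259 for Uhrf1. A summed length counts exons of all annotated transcripts, so it understates the level of a gene whose liver transcript is shorter.

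Among the writers, Dnmt1 was the steadiest of the 8 genes, with a standard deviation of 0.14 on the log2 scale over the 16 libraries. Here and below, in RNA of whole liver, fewer cells of a type and less RNA per cell cannot be told apart. The gene lies on chromosome 9 at 20907209 to 20959888, minus strand (GRCm38, as are all gene positions below). Dnmt1 had 18, 15.3, 15.7 and 15.9 CPM in PAM II livers, 14.7, 15.3, 16.4 and 17.8 CPM in PAM I livers, 19, 16.8, 15.5 and 16.4 CPM in aged controls and 12.6, 14.9, 15.2 and 14.2 CPM in young controls. The 3 aged groups overlapped, and all 4 aged controls lay above all 4 young controls, by little: the lowest aged control had 15.5 CPM and the highest young control 15.2 CPM. The log2 fold change of aged over young controls was 0.25 ± 0.10 (SE), and those of PAM II and PAM I over aged controls were -0.06 ± 0.10 and -0.07 ± 0.10.

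Dnmt3a, a de novo methyltransferase on chromosome 12 at 3806007 to 3914443, plus strand, varied most among the young livers. It had 29.7, 25.7, 22.8 and 25.2 CPM in PAM II livers, 21.5, 22.4, 24.2 and 21.3 CPM in PAM I livers, 24.5, 24.8, 26.1 and 30.1 CPM in aged controls and 33.5, 23.0, 31.8 and 23.0 CPM in young controls. Every PAM I library was below every aged control, the nearest pair being 24.2 and 24.5 CPM, and no other pair of groups compared was separated. The log2 fold change was -0.24 ± 0.13 for PAM I over aged controls, -0.03 ± 0.13 for PAM II over aged controls and -0.08 ± 0.13 for aged over young controls. The negative value for PAM I did not outlast an allowance for gene length, given below.

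Dnmt3b, the second de novo enzyme, on chromosome 2 at 153649450 to 153687730, plus strand, was lower in both exposed groups than in the aged controls. It had 3.42, 4.35, 4.81 and 2.44 CPM in PAM II livers, 4.22, 3.40, 4.04 and 2.35 CPM in PAM I livers, 6.82, 4.66, 4.80 and 5.63 CPM in aged controls and 4.70, 5.37, 5.8 and 4.94 CPM in young controls. All 4 PAM I libraries lay below all 4 aged controls, and in PAM II 1 library reached the aged range. The log2 fold changes over aged controls were -0.55 ± 0.22 in PAM II and -0.65 ± 0.22 in PAM I, and aged over young controls gave 0.07 ± 0.22. The ratio of Dnmt3a to Dnmt3b per length was 2.27 ± 0.78 in PAM II livers, 2.05 ± 0.52 in PAM I livers, 1.51 ± 0.27 in aged controls and 1.65 ± 0.39 in young controls (SD, n = 4), with overlapping ranges.

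Uhrf1, the cofactor of Dnmt1, showed the largest difference between ages among the 8 genes. It lies on chromosome 17 at 56303321 to 56323486, plus strand, and a promoter of it is printed above. Uhrf1 had 3.09, 1.14, 1.11 and 1.08 CPM in PAM II livers, 0.881, 1.63, 2.65 and 2.44 CPM in PAM I livers, 1.67, 0.983, 0.986 and 2.56 CPM in aged controls and 0.336, 0.424, 0.510 and 0.322 CPM in young controls. Every one of the 12 aged livers, exposed or not, lay above every young liver, and the 3 aged groups overlapped. The depth behind these values is small: 43 to 115 fragments per aged control and 11 to 21 per young control. The log2 fold change of aged over young controls was 1.95 ± 0.46, a level 3.86 times as high. It was 1.60 without aged control 4, 1.88 without young control 1, 1.53 without both and 1.45 with the skeletal muscle markers as a covariate. PAM II over aged controls gave 0.06 ± 0.42, which turned to -0.48 without PAM II 1, and PAM I over aged controls gave 0.29 ± 0.42. Relative to Dnmt1 per length, Uhrf1 stood at 0.167 ± 0.088 in PAM II livers, 0.201 ± 0.076 in PAM I livers, 0.159 ± 0.078 in aged controls and 0.0482 ± 0.0079 in young controls (SD, n = 4).

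**Figure D1:**
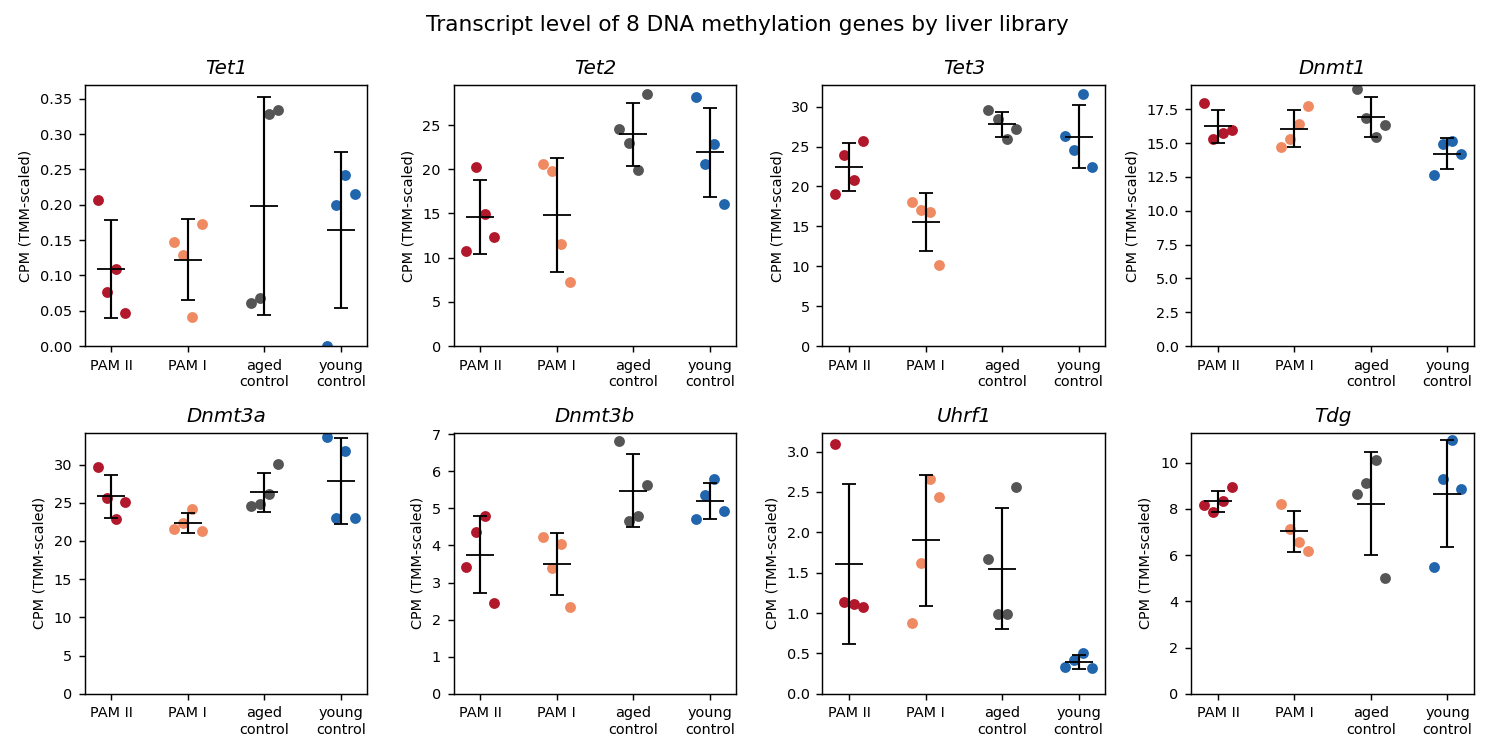
Level of each of the 8 genes in CPM after TMM scaling, with 1 point per liver library, the bar at the mean of each group and whiskers of 1 SD (n = 4). The 4 young controls are the lowest for Uhrf1, at 0.322 to 0.510 CPM, and the 4 PAM I libraries are below the other groups for Tet3, at 10.2 to 18.1 CPM.

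Among the erasers, Tet2 and Tet3 had lower levels in the exposed aged livers than in aged controls, while aged and young controls had similar levels. Tet2, on chromosome 3 at 133463679 to 133545139, minus strand, had 10.7, 20.3, 15 and 12.4 CPM in PAM II livers, 20.6, 19.8, 11.6 and 7.29 CPM in PAM I livers, 24.5, 23.0, 19.9 and 28.5 CPM in aged controls and 28.2, 20.6, 22.9 and 16.1 CPM in young controls. PAM I livers fell into a pair near the aged range and a pair well below it, and 1 PAM II library was also inside that range. The log2 fold change over aged controls was -0.72 ± 0.28 in PAM II and -0.70 ± 0.28 in PAM I, levels 0.609 and 0.617 times those of the aged controls. Leaving out single libraries moved the PAM I value between -0.92 and -0.48, the smallest without PAM I 4, and the PAM II value between -0.92 and -0.60. PAM II over PAM I gave -0.02 ± 0.28, and aged over young controls 0.13 ± 0.28.

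Tet3 had the tightest aged control group and the clearest separation. The gene lies on chromosome 6 at 83362373 to 83459084, minus strand. Tet3 had 19, 23.9, 20.8 and 25.7 CPM in PAM II livers, 18.1, 17.0, 16.8 and 10.2 CPM in PAM I livers, 29.6, 28.5, 26.0 and 27.2 CPM in aged controls and 26.4, 24.5, 31.6 and 22.4 CPM in young controls. The 3 aged groups followed each other without overlap, PAM I lowest, PAM II between and aged controls highest, although the highest PAM II library and the lowest aged control were only 25.7 and 26.0 CPM. Over aged controls the log2 fold change was -0.31 ± 0.16 in PAM II and -0.84 ± 0.16 in PAM I, and PAM II over PAM I gave 0.53 ± 0.16. These 3 values, and the order of the groups, carry no allowance for gene length, and values with one are given below. Without PAM I 4, the lowest library, PAM I over aged controls was -0.70 and PAM II over PAM I 0.38. Aged over young controls gave 0.08 ± 0.16, with overlapping libraries.

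Tet1, on chromosome 10 at 62804570 to 62908996, minus strand, was at the edge of detection. It had 12, 3, 5 and 2 fragments in PAM II libraries, 7, 6, 2 and 8 in PAM I libraries, 3, 3, 15 and 15 in aged controls and 0, 8, 10 and 8 in young controls, where the count of 0 allows up to 3. Summed, 22 fragments in PAM II livers against 36 in aged controls gave a depth-adjusted ratio of 0.603 with an exact 95% interval of 0.338 to 1.05, and 23 fragments in PAM I livers gave 0.621 with an interval of 0.352 to 1.08. Aged over young controls gave 1.14 with an interval of 0.669 to 1.97. These intervals cover counting error only, and each of them includes equality, which limits what this depth can show of Tet1.

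Tdg, the glycosylase that follows the Tet enzymes, on chromosome 10 at 82629828 to 82650799, plus strand, had similar means in all groups. It had 8.16, 7.85, 8.33 and 8.96 CPM in PAM II livers, 8.22, 7.12, 6.57 and 6.19 CPM in PAM I livers, 8.65, 9.12, 10.1 and 5.01 CPM in aged controls and 5.49, 9.29, 11 and 8.85 CPM in young controls. Aged control 4 and young control 1, the libraries that stood apart, were the lowest of the 16. Log2 fold changes were 0.02 ± 0.21 for PAM II and -0.23 ± 0.21 for PAM I over aged controls, with -0.08 ± 0.21 for aged over young controls; without aged control 4, PAM I over aged controls was -0.42. The exons of Tdg share 367 bases with Glt8d2 on the opposite strand, where 90 fragments were counted over all libraries against 5728 for Tdg. Shared bases were 133 for Dnmt3a with Dnmt3aos and 43 for Tet2 with Gm42567, and the copies Dnmt3c and Tdg-ps held 19 and 38 fragments in all.

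**Figure D2:**
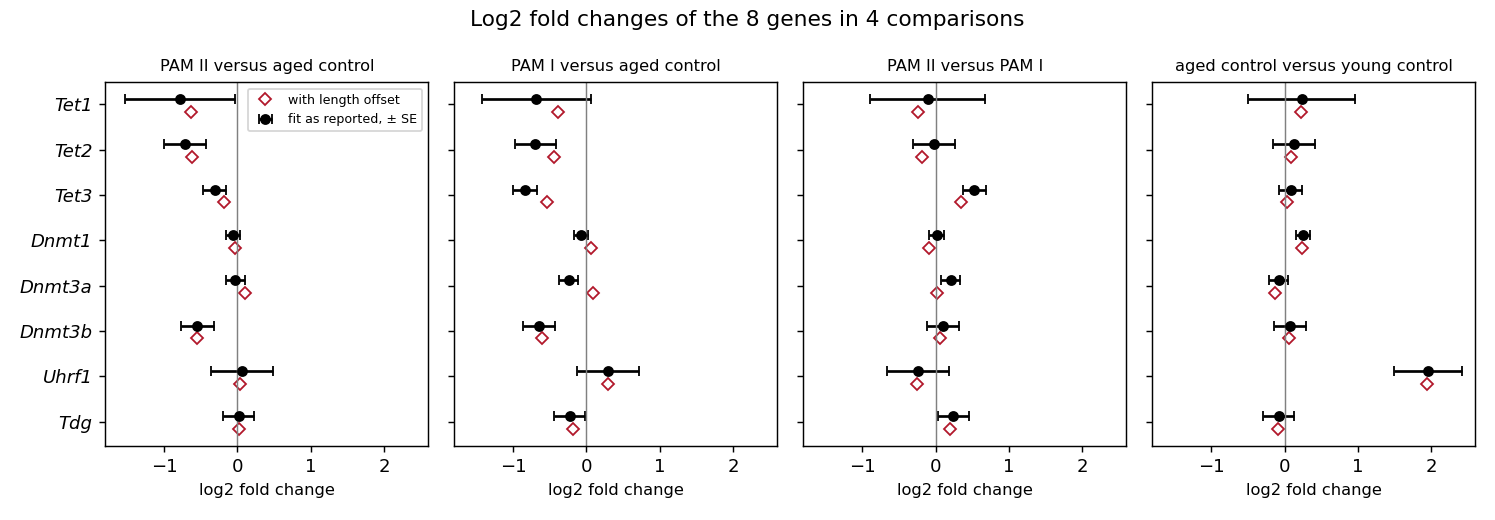
Log2 fold change of each gene in the 4 comparisons, as fitted with edgeR (black points with whiskers of 1 SE) and with an offset for gene length (open diamonds). Tet2, Tet3 and Dnmt3b lie left of 0 in both exposed groups against aged controls, and Uhrf1 at 1.95 is far right of 0 for aged against young controls.

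Set against all genes, the 8 had a median log2 fold change of -0.19 for PAM II over aged controls, where the 17046 genes had a median of 0.01, and of -0.44 for PAM I over aged controls, where all genes had 0.02. For PAM II over PAM I the medians were 0.06 and 0.01, and for aged over young controls 0.11 and -0.01. With edgeR's quasi-likelihood test adjusted over all genes at a threshold of 0.05, 1 of the 8, Uhrf1, was called higher in aged than in young controls, where 1.92% of all genes were called higher, 1.31% lower and 3.23% either way. In the other 3 comparisons 0 of 8 were called and 0% of all genes. Unadjusted p-values under 0.05 numbered 465 genes for PAM II over aged controls, 1602 for PAM I over aged controls and 778 for PAM II over PAM I. DESeq2 called 16 genes for PAM I over aged controls, 1 of them Tet3 of the 8, where it called 0.0352% of all genes lower and 0.0587% higher. It called Uhrf1 in aged over young controls, where it called 4.89% higher and 3% lower, and it called none for PAM II over aged controls or PAM II over PAM I.

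Genes whose groups were fully separated are the background for the separations above. Dnmt1 and Uhrf1 were the 2 members with all aged controls above all young controls, as were 4.83% of all genes. Tet3, Dnmt3a and Dnmt3b were the 3 with all PAM I livers below all aged controls, as were 2.4% of all genes. For Tet3 in PAM II below aged controls the share of all genes was 1.29%, and for Tet3 in PAM II above PAM I it was 1.76%. In the opposite directions, which no member showed, the shares were 4.44% for aged below young controls, 3.07% for PAM I above and 0.81% for PAM II above aged controls, and 2.9% for PAM II below PAM I. No share of all genes was computed for the order of the 3 aged groups in Tet3, or for every aged liver above every young liver in Uhrf1. As the genes were chosen with these groups known, nothing is read from these counts or from that order.

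The summed level of the 3 Tet transcripts relative to the 3 Dnmt transcripts, both per length, puts the members together within each library. This ratio was 0.367, 0.591, 0.482 and 0.549 in PAM II livers, 0.561, 0.538, 0.378 and 0.254 in PAM I livers, 0.600, 0.655, 0.598 and 0.651 in aged controls and 0.700, 0.607, 0.640 and 0.540 in young controls. All 8 exposed livers lay below all 4 aged controls, and the young range overlapped both. The ratio carries no allowance for the trend of fold changes with gene length given below. Tet2 and Tet3 are longer than Dnmt1 and Dnmt3b, and the part of length in the ratio was not tested. No share of all genes was computed for this separation. Its mean was 0.497 ± 0.098 in PAM II livers, 0.433 ± 0.145 in PAM I livers, 0.626 ± 0.032 in aged controls and 0.622 ± 0.066 in young controls (SD, n = 4). The ratio of Tet2 to Tet3 had overlapping ranges in all groups, at 0.646 ± 0.162 in PAM II livers, 0.916 ± 0.255 in PAM I livers, 0.853 ± 0.124 in aged controls and 0.828 ± 0.163 in young controls.

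Fold changes of all genes varied with gene length in the exposed groups, which touches Tet2, Tet3 and Dnmt3a because they are among the longest transcripts. For PAM I over aged controls the median log2 fold change was 0.16 over the 4145 genes with under 2 kb of exon and -0.26 over the 1334 genes with 10 kb or more. Among the 199 genes of 15 to 18 kb, the class of the 3 Tet genes and Dnmt3a, it was -0.33, with quartiles of -0.51 and -0.18. Tet2 and Tet3 lay below that lower quartile and Dnmt3a inside the quartiles. For PAM II over aged controls the same class had a median of -0.13 with quartiles of -0.28 and 0.01, and Tet2 and Tet3 were again below the lower quartile. For PAM II over PAM I the trend ran the other way, with a median of -0.13 under 2 kb and 0.21 in the class of 15 to 18 kb. The quartiles of that class were 0.09 and 0.34, and Tet3, at 0.53, lay above the upper one. For aged over young controls the median of the class was 0.04.

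With a length offset fitted in each library, Tet2 stood at -0.62 in PAM II and -0.44 in PAM I over aged controls, and Tet3 at -0.19 in PAM II and -0.54 in PAM I. For PAM II over PAM I, Tet3 stood at 0.35 under the offset. Dnmt3a changed sign under the offset, to 0.11 in PAM II and 0.09 in PAM I, and Dnmt1 did so in PAM I, to 0.06. Dnmt3b, a shorter transcript, kept values of -0.55 in PAM II and -0.61 in PAM I, and Uhrf1 in aged over young controls kept 1.94. The share of a library's fragments that fell in genes of 10 kb or more was 4.49% to 5.26% in PAM II livers, 4.05% to 4.86% in PAM I livers, 4.80% to 5.93% in aged controls and 4.25% to 5.39% in young controls. PAM I 4, the library with the least Tet2 and Tet3, had the lowest share of the 16. Whether RNA quality or library preparation has a part in the values of the Tet genes was not tested.

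**Figure D3:**
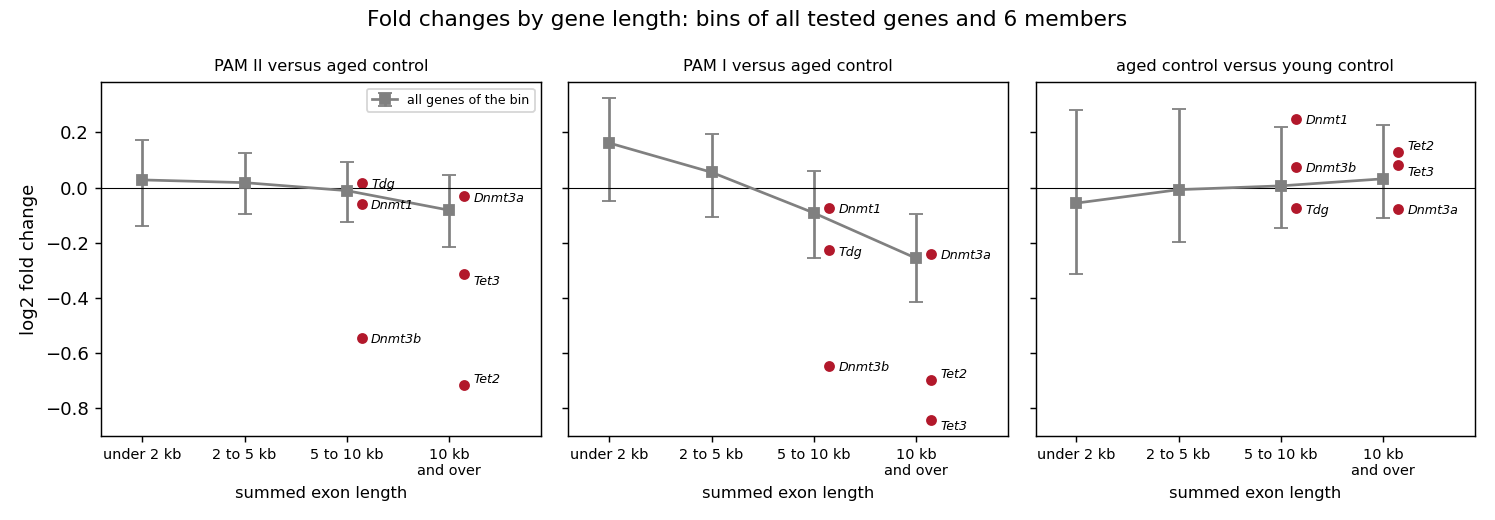
Log2 fold change by summed exon length: grey squares give the median of all tested genes in each length class with whiskers at the quartiles, and red points give 6 of the 8 genes in their own class (Tet1, with few fragments, and Uhrf1, off the scale in the age comparison, are not drawn). In PAM I over aged controls the grey medians run from 0.16 to -0.26, and Tet2 and Tet3 lie below the whisker of their class.

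The 3 libraries with least Tet2 were also the 3 with the highest level of Kupffer cell markers, and for recruited macrophage markers this held only in part. Summed over 7 Kupffer cell markers, among them Clec4f, Vsig4 and Timd4, the level was 1090, 318, 372 and 260 CPM in PAM II livers, 198, 307, 856 and 742 CPM in PAM I livers, 494, 179, 137 and 430 CPM in aged controls and 169, 177, 228 and 199 CPM in young controls. None of the 7 markers was at 0 in any group. The 3 highest sums belonged to PAM II 1, PAM I 3 and PAM I 4, which had 10.7, 11.6 and 7.29 CPM of Tet2, the 3 lowest Tet2 values of the 16. Aged controls 1 and 4, with the next highest sums, had 24.5 and 28.5 CPM of Tet2. Recruited macrophage markers, among them Trem2 and Gpnmb, summed to 95.6, 59.4 and 78.7 CPM in PAM II 1, PAM I 3 and PAM I 4, against 88.5 CPM in aged control 4, which had the highest Tet2 of the 16. The sum of PAM II 1 was the highest of the 16 and that of PAM I 4 the highest of the PAM I livers. Of the 7 Kupffer cell markers, 6 had a positive log2 fold change in PAM II and 6 in PAM I over aged controls, and 0 were called. The part of macrophages in the Tet2 values was not tested.

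The same 3 libraries had the highest Uhrf1 within their groups and 3 of the 4 highest values of all libraries, 3.09, 2.65 and 2.44 CPM, together with aged control 4 at 2.56 CPM. Aged controls 2 and 3, with Kupffer sums of 179 and 137 CPM inside or below the young range of 169 to 228 CPM, had 0.983 and 0.986 CPM of Uhrf1, above the highest young value of 0.510 CPM. Recruited macrophage markers summed to 23.4 to 95.6 CPM in PAM II livers, 46.0 to 78.7 CPM in PAM I livers, 39.3 to 88.5 CPM in aged controls and 19.6 to 33.6 CPM in young controls. Of these 7 markers 4, namely Itgax, Gpnmb, Trem2 and Cx3cr1, were called higher in aged than in young controls and none lower. Among all genes 1.92% were called higher. T and NK cell markers summed to 3.29 to 8.39 CPM in PAM II livers, 4.01 to 25.8 CPM in PAM I livers, 2.78 to 29.9 CPM in aged controls and 4.40 to 5.42 CPM in young controls, with 0 of 7 called and none at 0 in any group. B and plasma cell markers summed to 13.5 to 38.5 CPM in PAM II livers, 15.1 to 62.5 CPM in PAM I livers, 7.85 to 30.9 CPM in aged controls and 4.72 to 9.98 CPM in young controls. Their 4 highest sums were those of PAM I 4, PAM II 1, PAM I 3 and aged control 4, the 4 libraries with the highest Uhrf1. All 6 of these markers had a positive log2 fold change in aged over young controls, 0 of 6 were called and none was at 0 in any group. Bile duct markers summed to 53.5 to 141 CPM in aged and 30.6 to 47.1 CPM in young controls, with 0 of 5 called. Endothelium markers summed to 81.2 to 126 CPM in aged and 158 to 173 CPM in young controls. Of these 6 markers 1, Clec4g, was called lower, beside 1.31% of all genes. Erythroid precursor markers summed to 83.2 to 143 CPM in aged and 169 to 235 CPM in young controls, with 0 of 5 called. The part of any of these cells in the Uhrf1 difference was not tested.

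**Figure D4:**
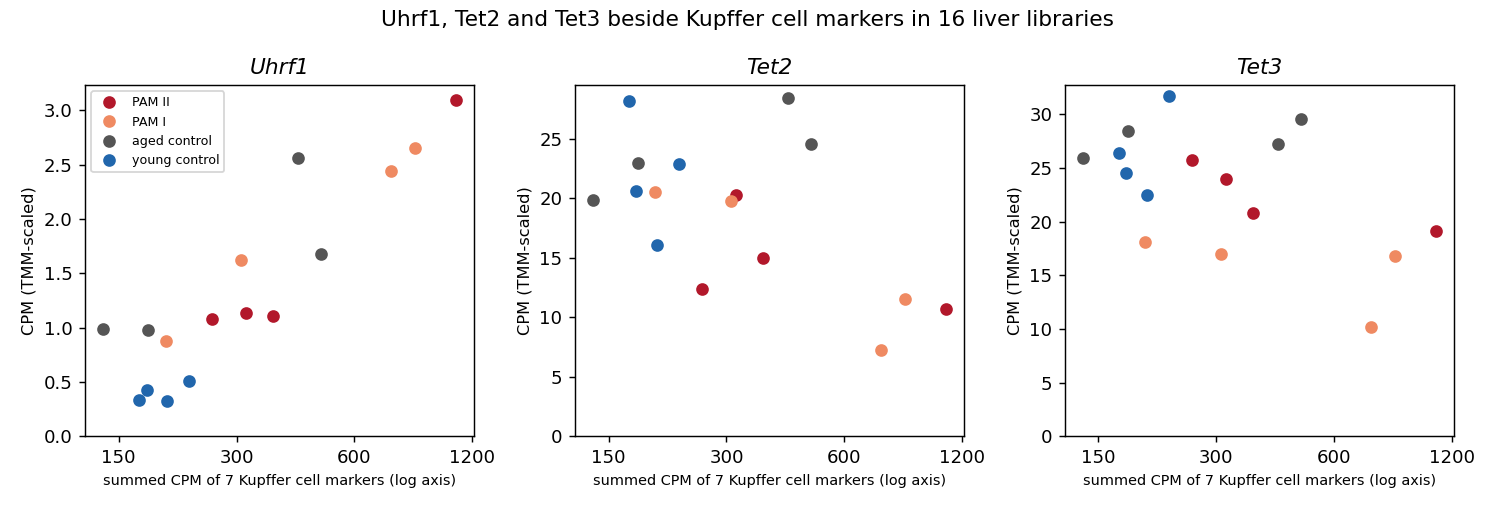
Level of Uhrf1, Tet2 and Tet3 (CPM) against the summed level of 7 Kupffer cell markers (CPM, log axis), with 1 point per liver library coloured by group. The 3 libraries at the right, with 742 to 1090 CPM of markers, have the 3 lowest Tet2 values and Uhrf1 of 2.44 to 3.09 CPM, and the young controls at the lower left have Uhrf1 of 0.510 CPM or less.

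Skeletal muscle markers were low in PAM II 1, PAM I 3 and PAM I 4, as they were in 3 of the 4 aged controls. They summed to 1.19, 17.7, 33.3 and 85.3 CPM in PAM II livers, 33.6, 34.2, 1.82 and 1.42 CPM in PAM I livers, 1.01, 10.4, 0.636 and 1.54 CPM in aged controls and 87.3, 0.998, 7.89 and 23.1 CPM in young controls. With their log2 sum as a covariate, Tet2 stood at -1.04 in PAM II and -0.98 in PAM I over aged controls, and Tet3 at -0.46 in PAM II and -0.94 in PAM I. The covariate was chosen after seeing the data, and the part of muscle RNA in these values was not tested.

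The genes whose profile over the 16 libraries was nearest to each member, among 10694 or 10695 genes compared, were found by the root mean square difference of centred log2 CPM. For Tet2, whose own spread was 0.53, they were Rfx7 at 0.20 and Fam13b at 0.22, and for Tet3, with a spread of 0.40, they were Atxn7 at 0.17 and Rfx3 at 0.18. For Uhrf1, with a spread of 1.0, they were Lgals3, which encodes galectin-3, at 0.23, and Ly9, a receptor of lymphocytes and other blood cells, at 0.29. Dnmt1, with a spread of 0.14, was nearest to Snx2 and Fam98b, both at 0.08. Dnmt3a was nearest to Ctdsp2 and Cabin1, both at 0.10, Dnmt3b to Zfp397 and Ago3, both at 0.22, and Tdg to Ctnnb1 and Sec23ip, both at 0.10. The nearest genes to Tet1, Lyve1 at 0.70 and Ptgfrn at 0.78, were far from it, its own spread being 1.15.

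Lists of genes that surround these enzymes in the pathway held few calls between aged and young controls, where 3.23% of all genes were called either way. Of the partners and regulators of the methyltransferases 17 of 19 were tested, and 0 were called in either direction between aged and young controls, with a median log2 fold change of -0.04 beside -0.01 for all genes; Pcna, the sliding clamp that also binds Dnmt1, was nearest the threshold at 0.34 ± 0.11 (edgeR adjusted p = 0.108), and Cdca7l stood at 1.61 ± 0.61 (edgeR adjusted p = 0.158). Dnmt3l, the cofactor without catalytic activity, had no fragment in PAM II livers, aged controls or young controls. The 14 genes listed as methyl-CpG readers and related proteins, Cxxc1 and Setdb1 among them, had 0 calls and a median of -0.10. Of 20 genes listed around the supply of 2-oxoglutarate and ascorbate, which also hold Ogdh, the Sdh genes and Fh1, 0 were called, with a median of -0.05. Idh2, the mitochondrial isocitrate dehydrogenase, averaged 135 ± 12 CPM in aged and 102 ± 14 CPM in young controls, and its log2 fold change was 0.40 ± 0.11 (edgeR adjusted p = 0.0561). The 33 genes of the methionine and one-carbon cycle, which makes the methyl donor, had 0 calls and a median of -0.10.

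Of the 26 Tet partners and base excision repair genes 1 was called higher in aged than in young controls, where 1.92% of all genes were called higher. This was Neil3, a glycosylase of dividing cells, at 0.62 ± 0.38 CPM in aged and 0.0835 ± 0.0478 CPM in young controls, a log2 fold change of 2.83 ± 0.74 (edgeR adjusted p = 0.0467), and the median of its list was -0.03. The call held without aged control 3 but in no other fit that left out 1 library, where the adjusted p reached 0.145. Of the Gadd45 proteins, stress proteins linked to DNA demethylation and named here after their values were seen, Gadd45g averaged 30.0 ± 10.6 CPM in aged and 163 ± 213 CPM in young controls, a log2 fold change of -2.44 ± 0.67 (edgeR adjusted p = 0.0579). The young mean of Gadd45g has an SD above it, and the sum of its list was 910 CPM in young control 1. In young controls 2, 3 and 4 that sum was 408, 484 and 458 CPM. Gadd45b averaged 2.91 ± 1.78 CPM in aged and 1.24 ± 0.44 CPM in young controls, a log2 fold change of 1.23 ± 0.41 (edgeR adjusted p = 0.112). Gadd45a averaged 7.67 ± 2.79 CPM in aged and 7.33 ± 2.52 CPM in young controls, a log2 fold change of 0.07 ± 0.32 (edgeR adjusted p = 0.940). Of the imprinted genes, whose parental expression rests on DNA methylation, 23 of 31 were tested and 1 was called higher, beside the same share of all genes. It was Airn, a non-coding RNA antisense to Igf2r, at 1.64 ± 0.41 CPM in aged and 0.639 ± 0.212 CPM in young controls, a log2 fold change of 1.35 ± 0.33 (edgeR adjusted p = 0.0379). Its call was lost in 6 of the 8 fits without 1 library and held without aged control 1 and without young control 3. Igf2r itself averaged 49.7 CPM in aged and 48.8 CPM in young controls. Of 26 germline genes that DNA methylation keeps silent in body tissues, 2 passed the filter. The sum over all 26 was 4.67 to 5.83 CPM in PAM II livers, 5.02 to 6.56 CPM in PAM I livers, 4.67 to 6.50 CPM in aged controls and 6.07 to 7.42 CPM in young controls. Most of it came from the 2 that passed, so it does not describe the others. Tdrkh averaged 3.22 CPM in aged and 4.20 CPM in young controls, and Brdt 1.37 CPM and 1.97 CPM.

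DNA replication and cell cycle genes, the setting in which Uhrf1 and Dnmt1 work, had 4 of 36 called higher and 2 called lower in aged than in young controls, with a median log2 fold change of 0.47 beside -0.01 for all genes. Of all genes, 1.92% were called higher and 1.31% lower. Top2a, which untangles DNA, averaged 3.60 ± 0.92 CPM in aged and 0.920 ± 0.460 CPM in young controls, a log2 fold change of 1.95 ± 0.44 (edgeR adjusted p = 0.0272). Foxm1, a transcription factor of mitosis, rose by 1.69 ± 0.39 (adjusted p = 0.0275 with edgeR) and Tpx2, a spindle protein, by 1.58 ± 0.36 (adjusted p = 0.0251 with edgeR). Mki67, which lies outside the naming rule and was named after its values were seen, rose by 1.80 ± 0.44 (adjusted p = 0.0364 with edgeR). Tk1, a kinase of thymidine salvage, fell by 1.03 on the log2 scale to 16.5 ± 4.1 CPM in aged controls, against 33.6 ± 10.3 CPM in young controls, and Mcm10, a replication initiation factor, fell by 1.16 to 33.3 ± 0.6 CPM, against 74.4 ± 38.2 CPM in young controls (adjusted p of 0.0202 and 0.0290 with edgeR). Calls depended on single libraries. Those of Top2a and Foxm1 were lost without aged control 4, young control 1 or young control 4, that of Tpx2 without aged control 2, young control 1 or young control 4, and that of Tk1 without aged control 2, aged control 3 or young control 1. Mcm10 kept its call in 2 of the 8 such fits, without young control 2 or without young control 3, and Mki67 in 1, without young control 3.

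Summed, the 36 cell cycle genes had 253, 183, 182 and 180 CPM in PAM II livers, 174, 211, 243 and 225 CPM in PAM I livers, 181, 176, 170 and 196 CPM in aged controls and 276, 168, 189 and 201 CPM in young controls. PAM II 1, PAM I 3 and PAM I 4, the libraries rich in Kupffer cell markers and in Uhrf1, had the highest sums of their groups. Much of the sum in the controls came from Mcm10 and Tk1, the 2 genes called lower with age. They averaged 74.4 and 33.6 CPM of a mean sum of 209 CPM in young controls, and 33.3 and 16.5 CPM of 181 CPM in aged controls. Of the 36 genes, 30 had a positive log2 fold change in aged over young controls, so the sum does not describe most of them.

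In the comparisons with exposed livers, 0 genes of any of these lists were called. Over aged controls the median log2 fold changes in PAM II and PAM I were -0.03 and -0.07 for the methyltransferase partners, -0.11 and -0.12 for the methyl-CpG readers, -0.03 and 0.03 for the Tet partners and base excision repair, and 0.08 and 0.11 for the supply of 2-oxoglutarate and ascorbate. They were 0.05 and -0.06 for the methionine and one-carbon cycle, -0.14 and -0.21 for the imprinted genes, and 0.15 and 0.30 for the cell cycle genes. Ogt, the sugar transferase that binds Tet2 and Tet3, averaged 75 ± 14 CPM in PAM II livers, 70.4 ± 16.1 CPM in PAM I livers and 95.1 ± 11.7 CPM in aged controls, with edgeR adjusted p = 1.0 for PAM II and 0.506 for PAM I. Slc23a2, a vitamin C transporter, averaged 29.7 ± 4.5 CPM in PAM II livers, 20.9 ± 3.6 CPM in PAM I livers and 27.1 ± 3.5 CPM in aged controls, with edgeR adjusted p = 0.880 for PAM II over PAM I and 0.506 for PAM I over aged controls.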

How the data were processed

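Column 7 of each of the 16 deposited tables holds fragment counts per gene, which the authors made, per the file headers, with featureCounts 1.5.0-p2 on an Ensembl 99 annotation with the strand setting 1; multi-mapping fragments and those overlapping several genes were not counted. Per the submitters' processing notes, reads were trimmed with Trimmomatic 0.38 and aligned with HISAT2 2.1.0 to mm10. Whether the kit marks strand is not given in the sources used here, so genes with an antisense partner, Airn among them, are uncertain. Symbols came from GENCODE M21, which matched 55230 of 55471 identifiers.

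Counts were fitted in R 4.3.3 with edgeR 4.0.16 (TMM scaling, its own filter on low counts, robust quasi-likelihood fit with 4 group means over 16 libraries, Benjamini-Hochberg adjustment over 17046 genes, threshold 0.05). SE is the log2 fold change before edgeR's shrinkage, without its sign, over the square root of F. The log2 fold changes printed are those after the shrinkage. P-values set a difference between groups against the spread between livers, which was estimated over all 4 groups with information shared between genes. The biological coefficient of variation was 27.3%, which with 4 livers per group limits precision, as does depth for Tet1 and Uhrf1. No batch is labelled. The code of the fit was run on simulated counts with the same spread for every gene and no length trend or outlying library. That run cannot show how the fit behaves with the features of these libraries. DESeq2 1.42.0, limma 3.58.1, other scalings, filters and left-out libraries were alternatives. Profiles were compared on log2 CPM with a prior of 0.5 fragments, among genes of mean log2 CPM of at least 1. Members and lists were chosen with earlier results of these data known. Named list genes were, per list and comparison, up to 5 called genes with the smallest p, or up to 2 where none was called; those of lists without calls are given in part. For each member the 2 genes with the nearest profile were named.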

Additional observations from a re-analysis of the deposited data

Results flagged for a closer look

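Of the 32 groups of 4 livers (8 genes in 4 groups), 2 had a library so far from the other 3 that its gap to the nearest of them exceeded Dixon's 95% limit, as a share of the whole range of the group, which chance passes in about 1 in 20 groups. Uhrf1 in PAM II 1 was at 3.09 CPM, against 1.08 to 1.14 CPM in the other 3 PAM II livers, a gap of 0.970 of the range. That library also had the highest marker sums of the 16 for Kupffer cells, at 1090 CPM, erythroid precursors, at 443 CPM, bile duct, at 204 CPM, endothelium, at 191 CPM, and recruited macrophages, at 95.6 CPM. Tet3 in PAM I 4 was at 10.2 CPM, against 16.8 to 18.1 CPM in the other 3 PAM I livers, a gap of 0.833 of the range. That library also had the lowest Tet2, at 7.29 CPM, and the lowest share of fragments in genes with 10 kb or more of exon, at 4.05%. The part of those measures in the 2 values was not tested.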

How the results depend on the processing

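The count of genes called between aged and young controls, 551, was 1343 with DESeq2, 198 with only those 8 libraries, 155 without aged control 4 and young control 1 together, and 285 with skeletal muscle markers as a covariate. Leaving out single libraries gave 199 to 573 (lowest without young control 4; 284 without aged control 4, 271 without young control 1). For PAM I over aged controls DESeq2 called 16 genes, against 0. The other settings left that count, and those for PAM II over aged controls and over PAM I, at 0. Uhrf1 was called in aged over young controls in 11 of 19 settings, 3 of 8 among those without 1 library, with log2 fold changes of 1.45 to 2.12. Tet3 in PAM I over aged controls was called in 1 of 19, with values of -0.94 to -0.54. Tet2 ranged from -0.98 to -0.44 in PAM I and from -1.04 to -0.59 in PAM II over aged controls. Values near 0 changed sign in several settings. The length offset and the muscle covariate were chosen after seeing the data. Cell cycle genes called higher with age numbered 0 to 11. No paired analysis was possible because the labels give no shared replicate numbers and the numbers used only name libraries. Depth limits Tet1 and the young values of Uhrf1. The cause of these changes was not tested.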

Other observations

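The imprinted growth gene H19, a fetal liver transcript, averaged 0.814 CPM in aged and 0.189 CPM in young controls, a log2 fold change of 2.06 (edgeR adjusted p = 0.0697, not called). Peg3 averaged 8.02 CPM in aged and 17.0 CPM in young controls (edgeR adjusted p = 0.220). Both were picked after their values were seen.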
